A study of Mus musculus with 17 samples.

Results

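The core circadian clock genes of the mouse kidney were examined in chromatin accessibility data: the activators Arntl (the gene for BMAL1) and Clock, the repressors Per1, Per2, Per3, Cry1 and Cry2, the nuclear receptors Nr1d1 and Nr1d2 (REV-ERBα and REV-ERBβ), and the output factor Dbp. These 10 genes were taken by name out of 21938 protein-coding genes of GENCODE M21 on mm10. Every peak summit from 10 kb upstream of a gene to its end was assigned to that gene. In lists of equal length the 10 genes held 526 summits, of which 517 fell into 45 regions found in at least 2 of 17 libraries, out of 52453 such regions genome-wide, and 9 were seen in 1 library only. The complete lists held 593.

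The libraries were made by ATAC-seq, in which a transposase cuts open chromatin, from 20000 cells of kidney per library and 1 mouse each. The mice were male and 8 weeks old at the start, and all 3 groups were followed for 6 weeks. The Ctrl group (n = 5) was C57BL/6 and received saline, the Case group (n = 6) was db/db (BKS.Cg-Dock7m +/+ Leprdb/J, homozygous for a leptin receptor mutation and diabetic) and also received saline, and the Dapa group (n = 6) was db/db and received dapagliflozin, an SGLT2 inhibitor, by gavage at 1 mg/kg per day. Case and Dapa share genotype and strain. Between Ctrl and either db/db group, strain background, leptin receptor genotype and diabetes change together and cannot be told apart. Between Ctrl and Dapa, dapagliflozin treatment changes with them and cannot be told apart either. Lights came on at 7 for 12 h, and the clock time of tissue collection is not given in the sources used here.

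The clock is a feedback loop of transcription. The BMAL1 and CLOCK proteins bind E-boxes and turn on the Per, Cry, Nr1d and Dbp genes, and the PER and CRY proteins return to block them. REV-ERB proteins repress Arntl at RORE elements and DBP binds D-boxes, and in the kidney this loop is known for daily rhythms of sodium transport, filtration and blood pressure.

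Only summit lists were analysed here, and they give no read depth. They held 29702 to 56659 summits per library, so each was cut to its 29702 highest-scoring summits. A summit was then described by its rank percentile within its own list (100 for the strongest, 0 where a library had no summit there). A percentile orders sites within 1 library and is not an amount of open chromatin. Of 13 kidney epithelium markers, 6 to 10 per library had a promoter summit. Lrp2, Pax8, Cdh16 and Slc12a3 had one in all 17 libraries, and Slc12a1 and Aqp2 in none. Leukocyte markers were nearly absent (0 to 2 of 8 per library, with Csf1r and Cd68 in Case 3, Cd68 in Dapa 8, Cd3e in Dapa 9 and Lyz2 in Dapa 10), hepatocyte markers were at 0 of 4 in every library, and endothelium and neuron markers reached at most 1 of 4. Among the neuron markers, Snap25 was marked in 10 of 17 libraries and Syt1 in 2, and among the endothelium markers Kdr was marked in 2.

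Stretches of the summit regions that carry clock motifs are shown first, since the E-boxes, D-boxes and RORE cores are the elements through which the members act on each other. All are from mm10 on the strand of the gene, 5′ to 3′, with the motif in capitals. A capital run AACGTG is the E-box variant CACGTT read on the opposite strand, and TTACATAA is the D-box TTATGTAA read likewise. The Per1 promoter stretch (chr11:69095027-69095112, plus strand) holds 1 E-box, and that of Per2 (chr1:91459302-91459461, minus strand) a D-box and an E-box variant. The Per3 promoter stretch (chr4:151044804-151044882, minus strand) holds a pair of D-boxes, and that of Cry1 (chr10:85185084-85185158, minus strand) an E-box variant and an E-box. The Cry2 stretch lies in an intron (chr2:92423855-92423954, minus strand), as does that of Nr1d1 (chr11:98773847-98774099, minus strand). The first Dbp stretch lies upstream (chr7:45704842-45704917, plus strand) with both RORE cores, and the other inside the gene (chr7:45707700-45707842, plus strand) with E-boxes.
Per1 promoter: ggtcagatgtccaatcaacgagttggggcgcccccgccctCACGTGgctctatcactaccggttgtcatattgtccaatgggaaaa
Per2 promoter: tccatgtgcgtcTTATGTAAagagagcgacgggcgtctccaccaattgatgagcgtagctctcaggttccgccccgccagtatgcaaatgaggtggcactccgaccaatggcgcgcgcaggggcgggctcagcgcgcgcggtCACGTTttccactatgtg
Per3 promoter: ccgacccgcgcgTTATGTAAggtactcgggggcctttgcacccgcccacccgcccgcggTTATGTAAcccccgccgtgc
Cry1 promoter: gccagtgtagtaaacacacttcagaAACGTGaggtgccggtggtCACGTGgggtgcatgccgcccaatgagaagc
Cry2 intron: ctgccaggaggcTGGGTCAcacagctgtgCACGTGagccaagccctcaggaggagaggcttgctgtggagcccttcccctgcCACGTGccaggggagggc
Nr1d1 intron: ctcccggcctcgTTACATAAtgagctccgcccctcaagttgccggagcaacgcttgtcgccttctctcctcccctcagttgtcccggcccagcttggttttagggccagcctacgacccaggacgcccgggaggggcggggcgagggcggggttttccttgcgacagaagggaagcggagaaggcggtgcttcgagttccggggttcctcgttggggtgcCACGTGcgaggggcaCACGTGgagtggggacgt
Dbp promoter: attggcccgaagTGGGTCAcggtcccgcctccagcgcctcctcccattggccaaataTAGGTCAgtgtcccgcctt
Dbp gene body: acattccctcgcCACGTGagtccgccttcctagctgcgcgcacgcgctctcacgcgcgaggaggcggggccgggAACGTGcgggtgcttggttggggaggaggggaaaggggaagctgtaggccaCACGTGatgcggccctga

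The 300 bases around the median summit of each region were searched on both strands for 6 motifs. CACGTG was found in 8 of 45 clock gene regions (17.8%) and in 7.01% of all 52453 regions, and CACGTT in 7 (15.6%) and 4.24%. TTATGTAA was found in 3 regions (6.67%) against 1.10% of all. The RORE cores TAGGTCA and TGGGTCA were found in 3 (6.67%) and 6 (13.3%), against 2.89% and 5.44%, and the CRE TGACGTCA in 1 (2.22%), at Per1, against 1.11%. An E-box or its variant was present in 13 regions of 8 of the 10 genes, and in 10.9% of all regions. The clock gene windows were also richer in G and C, with a median of 58.0% against 52.3%. The 3 D-box windows were those of Per2, Per3 and Nr1d1, each found in all 17 libraries. Among the 14 clock gene regions found in every library, 5 held CACGTG, against 10.8% of all 7876 regions found in every library. These shares are descriptions without a test, and a match of letters does not show that a factor bound there.

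The promoters of the clock genes were accessible in nearly every mouse. A summit within 1 kb of an annotated start was found in all 17 libraries for 9 of the 10 genes, against 31.6% of all protein-coding genes. Of the 45 clock gene regions, 18 lay within 1 kb of a start, and 14 (31.1%) were found in all 17 libraries, against 15.0% of all regions. The exception among the promoters was Clock, which had no promoter summit in Case 2, in the complete list of that library as well. Cry2 ranked highest, with a median percentile of 97.8 (92.8 to 98.9 over the 17 libraries), followed by Nr1d2 at 96.5 (91.1 to 99.1). Per3 (91.2), Arntl (89.1), Cry1 (88.2) and Per2 (86.2) lay at or above the median of 85.7 for all 6928 genes with a promoter summit in every library. Dbp (83.0), Nr1d1 (79.6), Per1 (78.7) and Clock (65.2) lay below it. No pair of neighbours in this order differed in mean by more than the larger of their SDs, and Cry2 was above Nr1d2 in 11 of 17 libraries.

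**Figure D1:**
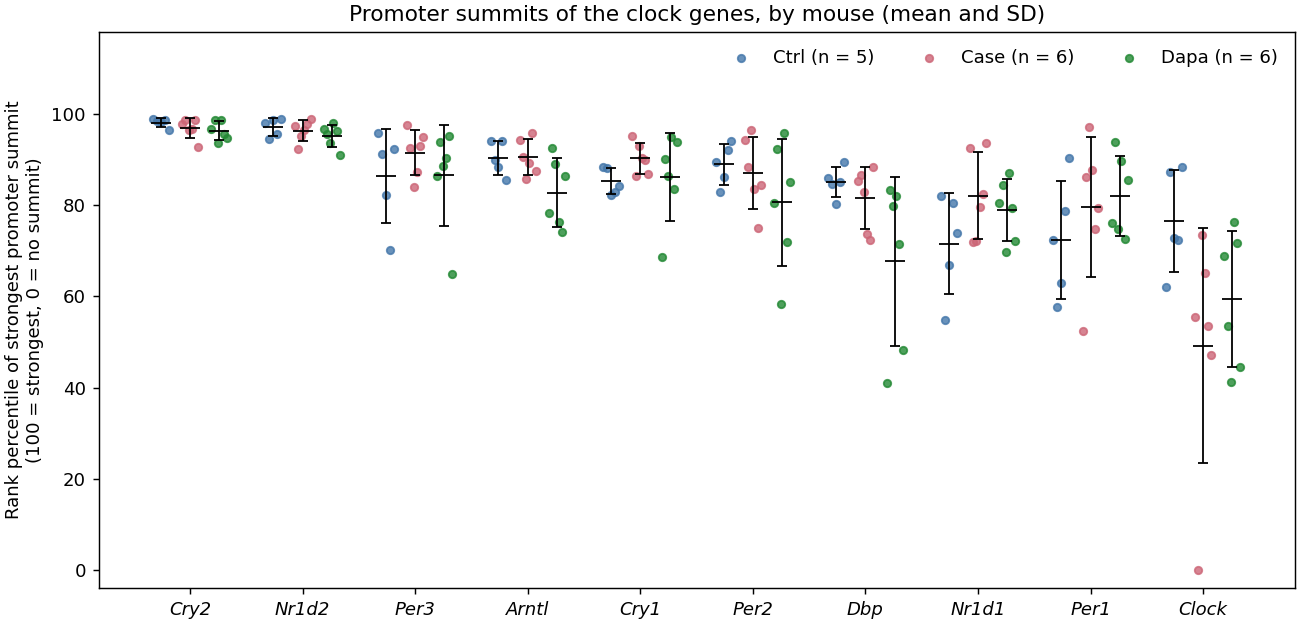
Rank percentile (vertical axis, 100 = strongest summit of the library, 0 = no summit) of the strongest promoter summit of each clock gene, with 1 point per mouse and black bars for the group mean and SD (Ctrl n = 5, Case n = 6, Dapa n = 6). Genes run from the highest to the lowest median, from Cry2 at 97.8 to Clock at 65.2, and the Clock point at 0 is Case 2.

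The 10 promoters were compared between groups as follows. Between Case and Ctrl, 5 had a higher and 5 a lower mean, with a median difference of -0.30 percentile points against -2.29 over all 13163 genes tested. Of all genes, 62.8% were lower in that comparison. Between Dapa and Case, 2 were higher and 8 lower, with a median of -3.58 against 0.04, and 48.7% of all genes were lower. Between Dapa and Ctrl, 4 were higher and 6 lower, with a median of -1.87 against -2.12, and 61.4% of all genes were lower. In the exact permutation test over mice, no gene in the genome passed after Benjamini-Hochberg adjustment in any of the 3 comparisons. Without adjustment, p was below 0.05 for 2 clock genes between Case and Ctrl (12.8% of all genes), for 0 between Dapa and Case (3.62%) and for 1 between Dapa and Ctrl (13.5%).

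Arntl, which encodes the partner of CLOCK, had 2 regions found in all 17 libraries. The promoter region (chr7:113206898-113207662) held percentiles of 94.1, 89.9, 88.5, 94.2 and 85.5 in Ctrl. They were 85.7, 89.96 and 96.0 (lowest, median, highest) in Case and 74.2, 82.3 and 92.5 in Dapa. Case and Ctrl overlapped, while 3 of 6 Dapa mice lay below every Case mouse. The difference Dapa minus Case was -7.78 (82.8 ± 7.51 against 90.6 ± 3.96, SD, n = 6 each; exact permutation p = 0.0584, adjusted p = 1), the lowest p of the clock promoters in that comparison. In the complete lists it was -4.63 (exact permutation p = 0.165). Percentiles in the complete lists also move with list length, which was 37402 to 56659 summits in Ctrl, 29702 to 51292 in Case and 32846 to 49442 in Dapa, and the part of this in the complete-list values given here and below was not tested.

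The other constant Arntl region lay in an intron 53152 bp into the gene (chr7:113260296-113260919). Its summit positions had an SD of 27.7 bp over the libraries, against a median of 46.9 bp for all regions found in every library. Its median percentile was 81.6, and the groups overlapped (means of 75.0 ± 16.9 in Ctrl, 75.0 ± 17.6 in Case and 85.3 ± 7.94 in Dapa). A weaker region at a noncoding exon 98195 bp into the gene (chr7:113305161-113306098), 240 bp from an annotated alternative start, was missing from all 5 Ctrl mice and marked in 4 Case and 2 Dapa libraries (Case against Ctrl, Fisher's exact p = 0.0606, adjusted p = 0.336). In the complete lists these counts were 1, 5 and 3. In the equal-length lists the region entered this test through its db/db summits alone, so its p is no support for a difference. Arntl held 3.20 ± 0.84 summits per Ctrl mouse, 4.67 ± 1.21 per Case mouse and 4.17 ± 1.60 per Dapa mouse. Case minus Ctrl was 1.47 (exact permutation p = 0.0996) and Dapa minus Ctrl 0.97 (p = 0.368), with adjusted p = 1 for both. The lowest p of the clock gene counts between Dapa and Ctrl was that of Arntl. With a mouse left out in turn, this Dapa minus Ctrl difference ran from 0.6 to 1.4.

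Clock, whose product pairs with BMAL1, had the lowest median and the widest range of the set over the 17 libraries, while in Ctrl alone Nr1d1 and Per1 had lower means. The strongest summit within 1 kb of a start stood at percentiles of 62.0, 87.3, 72.9, 72.5 and 88.4 in Ctrl. It ranged from 0 over a median of 54.5 to 73.5 in Case, and from 41.2 over 61.3 to 76.3 in Dapa. Of the 6 Case mice, 4 lay below every Ctrl mouse. The mean was 49.1 ± 25.8 in Case and 76.6 ± 11.1 in Ctrl, a difference of -27.5 (exact permutation p = 0.0303, adjusted p = 0.315). Between Dapa and Ctrl it was -17.2 (exact permutation p = 0.0606, adjusted p = 0.384), and Dapa minus Case was 10.3 (p = 0.481, adjusted p = 1). Without Case 2, the mouse at 0, the Case difference was -17.6 (exact permutation p = 0.0556), and p also passed above 0.05 without Case 1, Case 5, Case 6, Ctrl 2 or Ctrl 5.

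The Clock promoter consisted of 2 neighbouring regions, 1 at the start (median summit 62 bp upstream, chr5:76304459-76305514) and 1 in the first intron (857 bp downstream, chr5:76303626-76304281), and the gene Gm7467 also has a start within 1 kb of both, so that the summits cannot be given to Clock alone. At the start itself the Dapa percentiles were 19.4, 42.9 and 53.6 (lowest, median, highest), all below the lowest Ctrl value of 62.0. Those of Case were 0, 37.3 and 73.5. Means were 76.6 ± 11.1 in Ctrl, 40.02 ± 27.3 in Case and 40.1 ± 13.0 in Dapa. Taken over all regions of the genome in the same way, the difference was -36.6 between Case and Ctrl (exact permutation p = 0.0303, adjusted p = 0.466) and -36.5 between Dapa and Ctrl (p = 0.00433, the smallest this design allows, adjusted p = 0.297). The first-intron region was marked in 4 Ctrl, 4 Case and 5 Dapa libraries, with Dapa percentiles up to 76.3. In the complete lists, whose lengths differ as given for Arntl, the differences from Ctrl at the start were -29.8 in Dapa and -33.4 in Case (exact permutation p = 0.00433 for each). There, all 6 Dapa and all 6 Case mice lay below every Ctrl mouse. The share of all regions separated in this way is not given for the complete lists, so how common it is there is not shown. In the equal-length lists it was 1.57% between Case and Ctrl and 1.46% between Dapa and Ctrl. Where both Clock promoter regions were merged into 1, the Dapa minus Ctrl difference was -17.2 with summits joined over 500 bp to each side (exact p = 0.0606) and -15.2 with regions built from the complete lists (exact p = 0.0519).

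This comparison of region percentiles was added after the values had been seen. It counted 4 of the 45 clock gene regions with an unadjusted p below 0.05 between Case and Ctrl (8.16% of all regions), 3 between Dapa and Case (2.12%) and 7 between Dapa and Ctrl (7.77%). Regions found in few libraries can hardly reach such a p, and among the regions found in at least 9 libraries (28 of the clock genes, 21871 in all) the counts were 3 (14.4%), 3 (4.72%) and 6 (14.1%). No region in the genome passed after adjustment in any comparison, the smallest adjusted p being 0.275 between Case and Ctrl.

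**Figure D2:**
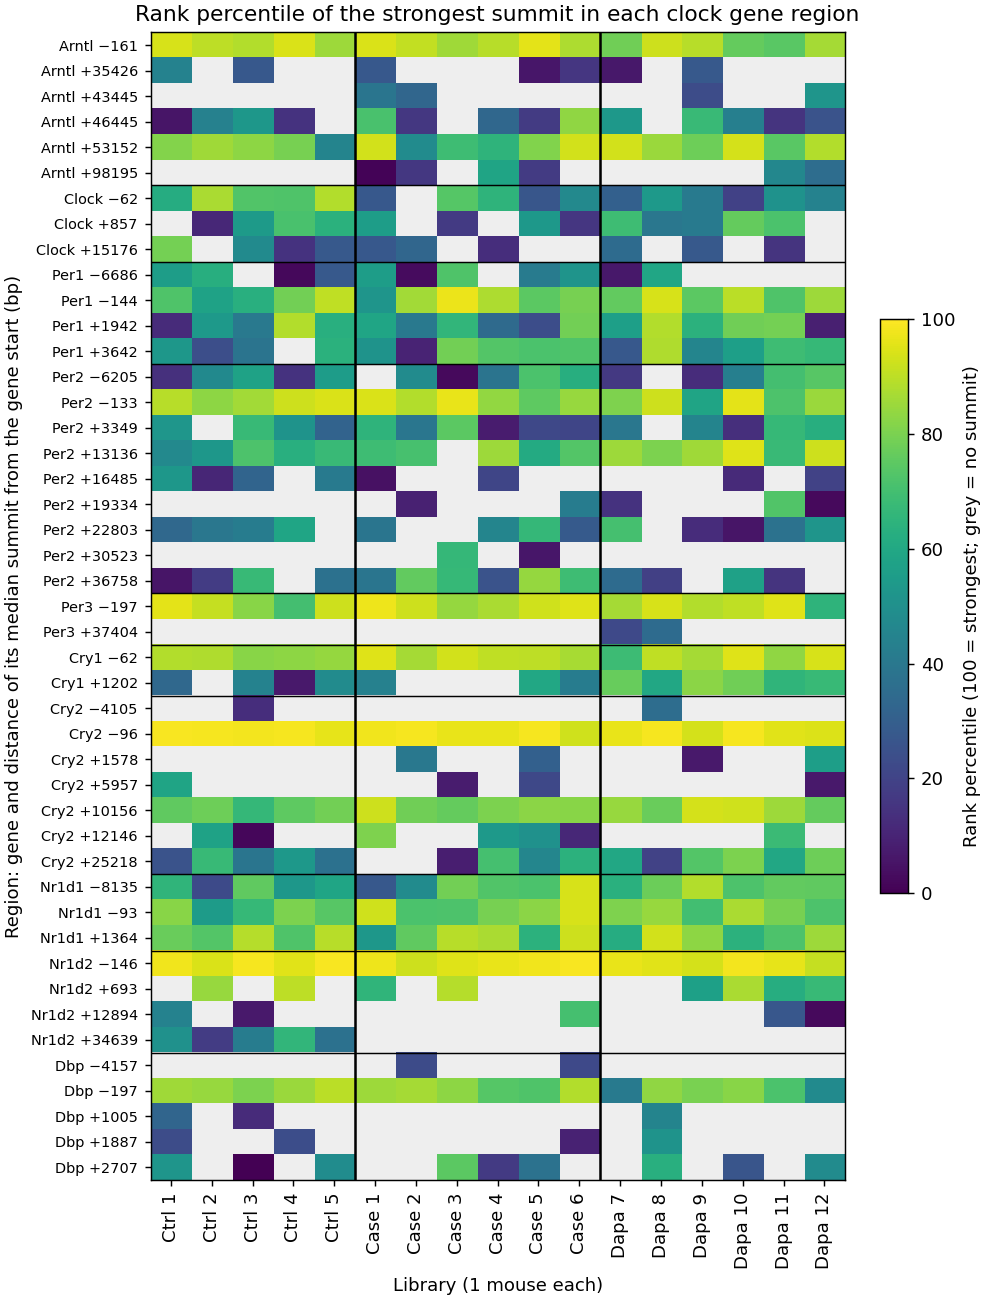
Rank percentile (colour, grey where a library had no summit) of the strongest summit in each of the 45 clock gene regions (rows, named by gene and by the distance of the median summit from the gene start in bp) in each of 17 libraries (columns, black vertical lines between Ctrl, Case and Dapa). 14 rows are filled across all columns, and Nr1d2 +34639 is filled in the 5 Ctrl columns only.

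Per1, the member of the Period family that answers fastest to light and glucocorticoids, had 4 regions. The promoter (chr11:69094647-69095419), whose E-box is printed above and lies 6 bp from the median summit, was found in every library, as was the intron region 1942 bp into the gene (chr11:69096666-69097494), which holds the CRE. Promoter percentiles were 72.4, 57.7, 62.9, 78.7 and 90.5 in Ctrl, 52.3, 82.8 and 97.3 (lowest, median, highest) in Case and 72.5, 80.8 and 93.9 in Dapa, so the groups overlapped (Case minus Ctrl 7.15, exact permutation p = 0.429, and 2.14 with p = 0.684 in the complete lists). The region 3642 bp into the gene was missing in 1 library only, Ctrl 4. The region 6686 bp upstream lies at the start of the neighbour Vamp2 and was marked in 4 Ctrl, 5 Case and 2 Dapa libraries (Dapa against Case, Fisher's exact p = 0.242, adjusted p = 1).

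Per2, a repressor that is also induced by cyclic AMP and glucocorticoids, had the most summits of the set, a median of 7 per library (4 to 7), in 9 regions. Its promoter (chr1:91459146-91459902) was found in every library at 89.0 ± 4.56 in Ctrl, 87.1 ± 7.87 in Case and 80.7 ± 13.9 in Dapa, and its groups overlapped (Dapa minus Ctrl -8.29, exact permutation p = 0.255). The summit fell 15 bp from the D-box printed above. Summit counts were 6.20 ± 0.84, 6.33 ± 0.82 and 6.17 ± 1.33 in the same order, and did not differ beyond the spread (exact p = 1 between Case and Ctrl).

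Among the Per2 introns, the region 13136 bp into the gene (chr1:91445913-91446475) was the sharpest of the clock gene regions found in at least 16 libraries, with a summit SD of 21.7 bp. Percentiles were 47.2, 53.1, 72.2, 63.3 and 67.7 in Ctrl. They were 0, 69.8 and 85.4 (lowest, median, highest) in Case, the 0 being Case 3, and 67.9, 85.5 and 95.3 in Dapa. Of the 6 Dapa mice, 5 lay above every Ctrl mouse and 3 above every Case mouse. The mean was 84.5 ± 9.78 in Dapa, 60.7 ± 10.3 in Ctrl and 59.9 ± 30.4 in Case, a difference of 23.8 between Dapa and Ctrl (exact permutation p = 0.00866, adjusted p = 0.380) and 24.6 between Dapa and Case (p = 0.0346, adjusted p = 1), which was 12.7 without Case 3 (exact p = 0.0693) and kept a p below 0.05 in 2 of 12 fits with a mouse left out. The Dapa minus Ctrl difference was 14.8 in the complete lists (exact permutation p = 0.00866). Dapa minus Case was 23.4 there (exact permutation p = 0.0130), with 5 of 6 Dapa mice above every Case mouse.

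A second Per2 intron region, 36758 bp into the gene (chr1:91422029-91422945), went the other way. It was found in 6 of 6 Case mice, with percentiles of 25.8, 68.0 and 84.2 (lowest, median, highest), and in 4 of 6 Dapa mice, with 0, 17.1 and 57.1. In Ctrl the values were 5.52, 17.7, 67.4, 0 and 37.3. Dapa minus Case was -39.1 (21.1 ± 22.0 against 60.1 ± 22.7; exact permutation p = 0.0152, adjusted p = 1), and Case minus Ctrl 34.6 (p = 0.0519, adjusted p = 0.611). The groups overlapped, the summits were scattered with an SD of 107 bp, and in the complete lists Dapa minus Case was -30.5 (exact permutation p = 0.0736) and Case minus Ctrl 21.6 (p = 0.212).

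**Figure D3:**
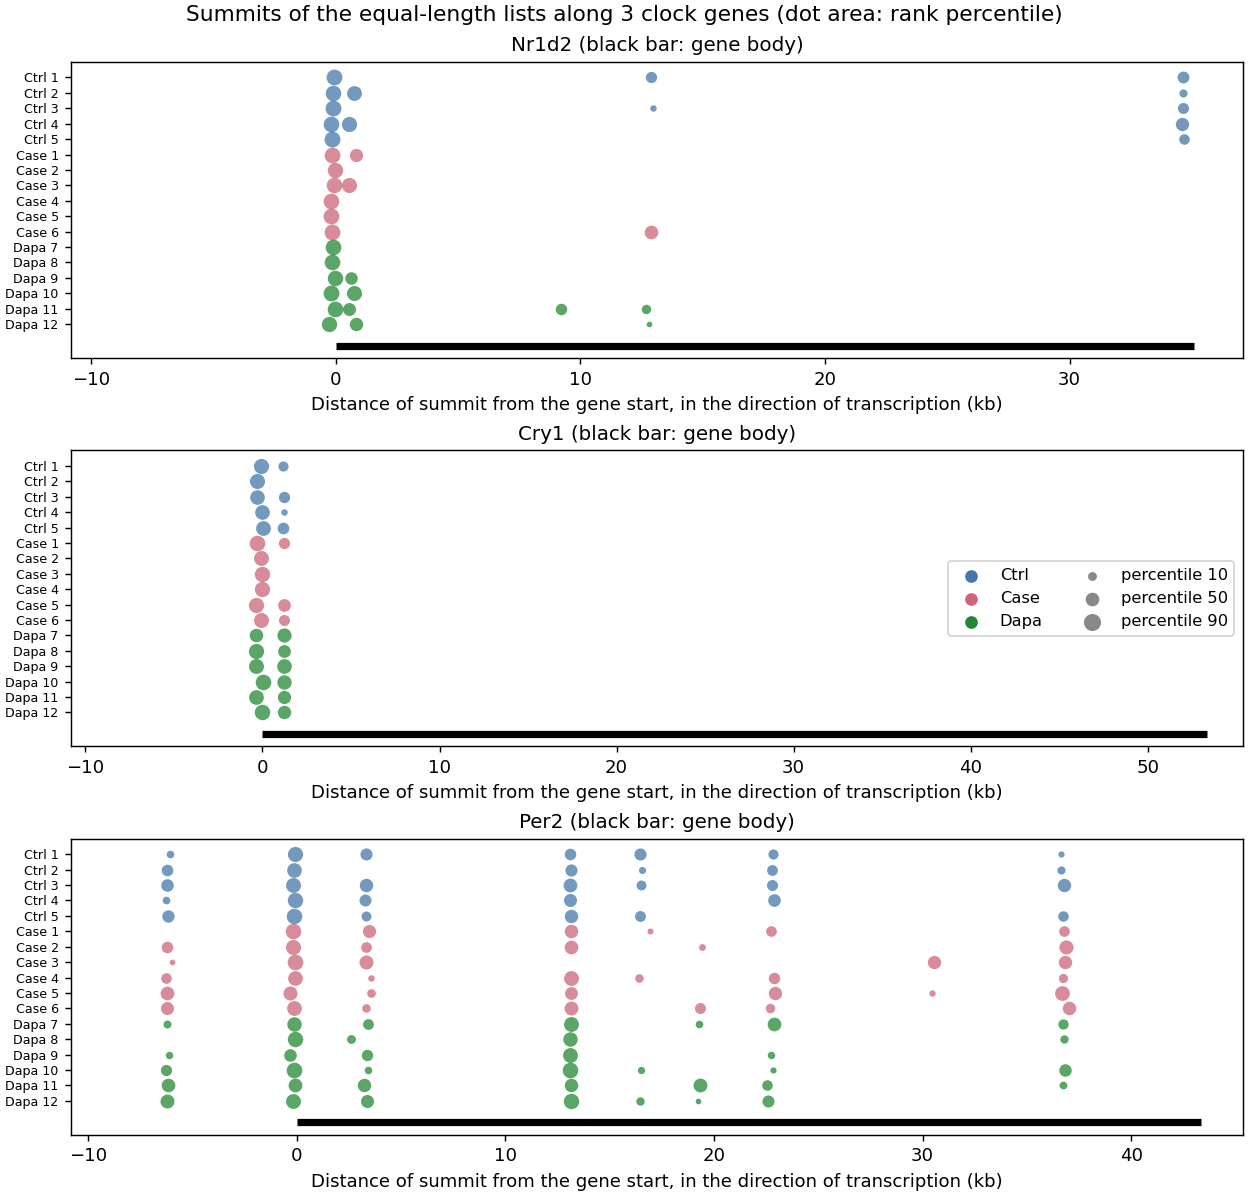
Summits of the equal-length lists along Nr1d2, Cry1 and Per2 in each library (rows), by distance from the gene start in the direction of transcription (kb). Dot area grows with the rank percentile, colour gives the group and the black bar is the gene body. The Nr1d2 summits near 34639 bp occur in the 5 Ctrl rows only, and the second Cry1 column, 1202 bp from the start, is filled in all 6 Dapa rows.

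Per3, which has the weakest clock phenotype of the Period genes, had a single constant region, its promoter (chr4:151044455-151045225), with both D-boxes printed above within 46 bp of the median summit. Percentiles were 96.0, 91.2, 82.3, 70.2 and 92.4 in Ctrl, 84.0, 92.7 and 97.6 (lowest, median, highest) in Case and 64.9, 89.5 and 95.3 in Dapa. Groups overlapped (Case minus Ctrl 5.15, exact permutation p = 0.329; Dapa minus Case -4.98, p = 0.411), and the same differences were 1.50 and -2.67 in the complete lists. The gene lies within the longer Camta1 locus, so its summits overlap both.

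Cry1, the repressor that acts late in the cycle, had 2 regions. The promoter (chr10:85184800-85185677) stood at 88.4, 88.2, 82.4, 83.0 and 84.3 in Ctrl, at 86.5, 90.2 and 95.2 (lowest, median, highest) in Case and at 68.7, 88.3 and 95.1 in Dapa. Of the 6 Case mice, 4 lay above every Ctrl mouse. The means were 90.3 ± 3.42 in Case and 85.2 ± 2.86 in Ctrl, a difference of 5.07 (exact permutation p = 0.0303, adjusted p = 0.315), which was 1.78 with the complete lists (exact p = 0.359). With a mouse left out in turn, p stayed below 0.05 in 5 of 11 fits.

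The other Cry1 region lay in the first intron, 1202 bp from the start (chr10:85183573-85184153). Percentiles in Ctrl were 33.7, 0, 44.4, 7.00 and 48.1. They were 0, 21.0 and 60.0 (lowest, median, highest) in Case and 60.1, 72.1 and 82.6 in Dapa. It was marked in 4 Ctrl, 3 Case and all 6 Dapa libraries, and every Dapa mouse ranked above every Case and every Ctrl mouse, by a narrow margin over Case 5. Dapa minus Case was 47.4 (71.8 ± 8.70 against 24.3 ± 27.4; exact permutation p = 0.00216, adjusted p = 1) and Dapa minus Ctrl 45.1 (26.6 ± 21.9 in Ctrl; p = 0.00433, adjusted p = 0.297). Both are the smallest p that the design allows. Such a complete separation was seen in 0.0763% of all regions between Dapa and Case and in 1.46% between Dapa and Ctrl, where 1 and 3 clock gene regions had it. Between Case and Ctrl 1.57% of all regions and 1 clock gene region, at Nr1d2, were separated in this way. With each mouse left out in turn the Dapa minus Case difference stayed between 42.6 and 54.6 (exact p = 0.00433 in each of 12 fits). In the complete lists the difference was 47.1 (exact permutation p = 0.00866), and only 3 of 6 Dapa mice lay above every Case mouse, the highest being Case 5. The Cry1 summit count was 2 in all Dapa mice against 1.50 ± 0.55 in Case (exact permutation p = 0.182, adjusted p = 1), the lowest p of the clock gene counts in that comparison.

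The stretch under the Cry1 intron summits (chr10:85183783-85183943, minus strand) and that under the Per2 intron summits at 13136 bp (chr1:91446123-91446265, minus strand) are shown because these 2 regions had the lowest p among those higher in Dapa than in Ctrl. Capitals mark the span from the first to the last summit among the libraries, which is 81 bases at Cry1 and 63 bases at Per2. Neither 300-base window held any of the 6 motifs searched.
Cry1 intron: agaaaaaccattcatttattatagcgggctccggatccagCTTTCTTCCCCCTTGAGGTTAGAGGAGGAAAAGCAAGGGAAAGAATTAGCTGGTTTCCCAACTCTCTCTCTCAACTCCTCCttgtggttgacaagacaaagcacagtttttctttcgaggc
Per2 intron: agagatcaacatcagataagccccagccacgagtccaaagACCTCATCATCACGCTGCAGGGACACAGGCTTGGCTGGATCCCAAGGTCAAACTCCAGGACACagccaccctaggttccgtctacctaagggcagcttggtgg

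Cry2, a partner of Cry1 in repression and the highest-ranked clock promoter, had 2 constant regions. Its promoter (chr2:92433533-92434460) stayed between 92.8 and 98.9 in all 17 libraries (98.2 ± 0.98 in Ctrl, 96.9 ± 2.20 in Case and 96.4 ± 2.10 in Dapa; Dapa minus Ctrl -1.82, exact permutation p = 0.139). The intron region 10156 bp into the gene (chr2:92423555-92424172), which carries the pair of E-boxes printed above, stood at 75.6, 78.0, 66.4, 75.0 and 78.9 in Ctrl, at 76.3, 81.2 and 92.2 (lowest, median, highest) in Case and at 76.5, 85.0 and 93.6 in Dapa. In each db/db group 4 of 6 mice lay above every Ctrl mouse. The mean difference from Ctrl was 7.20 in Case (exact permutation p = 0.0260, adjusted p = 0.466) and 10.2 in Dapa (p = 0.0390, adjusted p = 0.557), and p stayed below 0.05 in 8 and 4 of 11 fits with a mouse left out. In the complete lists it was 6.00 for Dapa (exact permutation p = 0.0476) and 1.18 for Case (p = 0.740), and for Case it was -2.13 when summits were chosen by a score of at least 5. This region and those 5957 and 12146 bp into the gene overlap the gene D930015M05Rik. The region 12146 bp into the gene was marked in 1 of 6 Dapa and 4 of 6 Case mice (Fisher's exact p = 0.242, adjusted p = 1), and in 4 of each in the complete lists. It shared the lowest presence p of the 8 testable clock gene regions between Dapa and Case with the Per1 region at Vamp2, and 0 of these had an unadjusted p below 0.05 (1.13% of all testable regions).

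Nr1d1, whose product represses Arntl, had 3 regions in all 17 libraries: the promoter (chr11:98775061-98775808), an intron region 1364 bp into the gene with the E-boxes and D-box printed above (chr11:98773575-98774409), and a region 8135 bp upstream (chr11:98783050-98783781). Promoter means were 71.6 ± 11.2 in Ctrl, 82.1 ± 9.57 in Case and 78.9 ± 6.79 in Dapa (Case minus Ctrl 10.5, exact permutation p = 0.134, against 2.43 with p = 0.619 in the complete lists). The intron region stood at 80.3 ± 8.33, 77.0 ± 15.7 and 76.6 ± 12.4, and the groups overlapped. The upstream region stood at 65.3, 22.6, 75.6, 52.9 and 58.9 in Ctrl, at 27.4, 72.3 and 94.1 (lowest, median, highest) in Case and at 63.5, 75.8 and 88.7 in Dapa. Of the Dapa mice, 4 exceeded the highest Ctrl value (Dapa minus Ctrl 20.5, exact permutation p = 0.0303, adjusted p = 0.493). The difference was 11.2 in the complete lists (exact permutation p = 0.0433), where 2 Dapa mice exceeded every Ctrl mouse. In the equal-length lists without Ctrl 2 the difference was 12.4 (exact permutation p = 0.0667), and p was also above 0.05 without Ctrl 4, Ctrl 5, Dapa 8 or Dapa 9.

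Nr1d2, the paralogue of Nr1d1, held the region that separated the groups by presence. Its promoter (chr14:18238905-18239648) was among the strongest sites of every library (97.2 ± 2.00 in Ctrl, 96.4 ± 2.32 in Case and 95.2 ± 2.47 in Dapa), and the groups overlapped. A region at the other end of the gene, 34639 bp from the start in the untranslated part of the last exon (chr14:18204214-18204762), was marked by a summit in all 5 Ctrl mice but in 0 of 6 Case mice, and likewise in 0 of 6 treated with dapagliflozin. The Ctrl percentiles were 50.4, 17.7, 42.1, 66.0 and 37.3, so the site was of middling rank.

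Fisher's exact test gave p = 0.00216 for this Nr1d2 region in each comparison with Ctrl, with an adjusted p of 0.134 for Case and 0.178 for Dapa, the smallest adjusted values of either table. It was the 1 region of 9 testable clock gene regions with an unadjusted p below 0.05 between Case and Ctrl (10.2% of all testable regions), and 1.58% of these had a summit in every Ctrl and no Case mouse. Against Dapa it was 1 of 8 (7.89%), and 1.04% had a summit in every Ctrl and no Dapa mouse. The region entered the tests through its Ctrl summits alone. Its p values and its place among the regions called or separated are therefore no support for a difference. In the complete lists the counts were 5, 1 (Case 1, percentile 28.2) and 0. Among the 14851 highest scores of each library the site kept a summit in 1 Ctrl mouse and in 0 db/db mice, so it was no longer a region there and the call was lost.

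The 5 Ctrl summits of the equal-length lists at this Nr1d2 site had an SD of position of 20.6 bp. The 300 bases around them have a G and C content of 35.3%, the lowest of the clock gene regions, and match 1 other place in the mm10 genome at 96.7% identity, chr19:40196416-40196715, outside annotated genes, where no library had a summit. Strain differs between Ctrl and db/db mice, and whether the sequence differs between the strains was not tested. The number of Nr1d2 summits was 3, 3, 3, 3 and 2 in the Ctrl mice. It ran from 1 over 1.5 to 2 in Case and from 1 over 2 to 4 in Dapa, with a difference of -1.3 between Case and Ctrl (exact permutation p = 0.0173, adjusted p = 1). The call was lost with all summits (-1.37, exact p = 0.134) and with the 14851 highest scores (-0.1, exact p = 1). It was the 1 clock gene with an unadjusted p below 0.05 by count in that comparison (3.55% of all 17116 genes), and there were 0 between Dapa and Case (0.83%) and 0 between Dapa and Ctrl (2.78%). The Nr1d2 counts include the site above, marked in all 5 Ctrl and 0 of 6 Case mice, so they are not separate support for a difference.

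**Figure D4:**
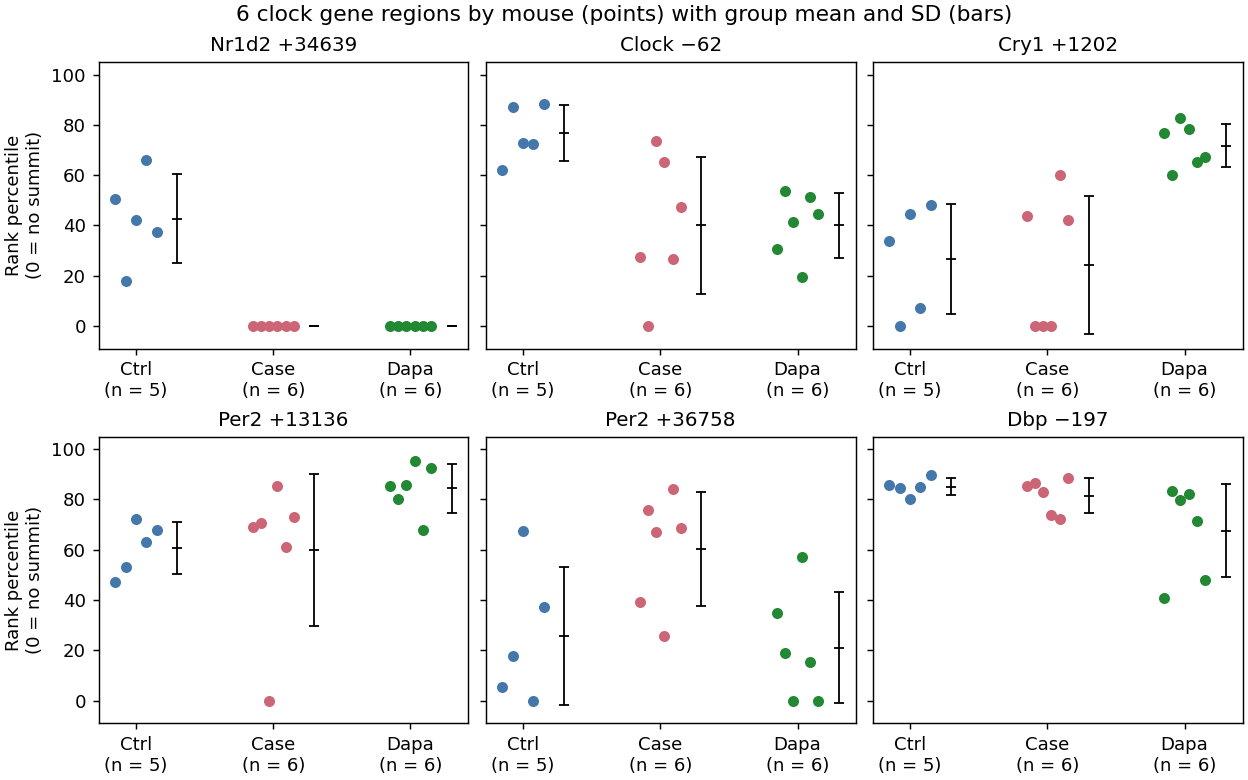
Rank percentile (0 = no summit) in 6 clock gene regions, with 1 point per mouse and bars for the group mean and SD (Ctrl n = 5, Case n = 6, Dapa n = 6). Nr1d2 +34639 is above 0 in the 5 Ctrl mice only, all Dapa points of Clock −62 lie below the lowest Ctrl point at 62.0, and all Dapa points of Cry1 +1202 lie at or above 60.1.

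Dbp, a direct output of the loop that drives genes through D-boxes, had its promoter region (chr7:45703876-45705249) in every library. The strongest promoter summit stood at 85.9, 84.6, 80.4, 85.2 and 89.6 in Ctrl. It stood at 72.3, 84.2 and 88.4 (lowest, median, highest) in Case and at 41.0, 75.7 and 83.3 in Dapa. Of the 6 Dapa mice, 4 lay below every Ctrl mouse, and Dapa 7 and Dapa 12 were the lowest at 41.0 and 48.3. In Dapa 12 the strongest of these summits lay 3278 bp into the gene near an alternative start, and the promoter region itself stood at 47.8. The mean was 67.7 ± 18.5 in Dapa and 85.1 ± 3.30 in Ctrl, a difference of -17.5 (exact permutation p = 0.0173, adjusted p = 0.258). Dapa minus Case was -13.9 (exact permutation p = 0.132, adjusted p = 1) and Case minus Ctrl -3.57 (p = 0.346, adjusted p = 0.785). For the promoter region in the complete lists, Dapa minus Ctrl was -13.7 (exact permutation p = 0.00866). Dapa minus Case was -8.29 there (exact permutation p = 0.177) and Case minus Ctrl -5.43 (p = 0.0606).

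The E-box region inside Dbp, 2707 bp from the start (chr7:45707448-45708616), was marked in 3 libraries of each group. The other Dbp regions were rare, in 2 to 4 libraries each, and the one 4157 bp upstream lies in the neighbour Car11.

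The clock genes outside the core set, taken as a list of 21 (among them Rora, Tef, Hlf, Nfil3, Bhlhe40 and the casein kinase genes), had a promoter summit in every library for 12 genes. Between Case and Ctrl, Csnk1d, a kinase that marks PER proteins for breakdown, stood at 67.1 ± 13.8 against 35.6 ± 17.2 (exact permutation p = 0.0173, adjusted p = 0.279), and Nono, a PER partner, at 16.1 ± 17.7 against 48.7 ± 22.1 (p = 0.0346, adjusted p = 0.332). By summit count Fbxw11, a ubiquitin ligase subunit, differed by -1.43 between Case and Ctrl (exact p = 0.0433, adjusted p = 1). Between Dapa and Ctrl Fbxl21, which acts on CRY proteins, was 7.50 percentile points higher (exact p = 0.0346, adjusted p = 0.309), and 0 of the 21 reached an unadjusted p below 0.05 between Dapa and Case by percentile or by count. By percentile these were 2 of 21 between Case and Ctrl (12.8% of all genes), 0 between Dapa and Case (3.62%) and 1 between Dapa and Ctrl (13.5%), and by count 1 (3.55%), 0 (0.83%) and 0 (2.78%). Median promoter differences were 0.02, -3.15 and -1.82 for Case minus Ctrl, Dapa minus Case and Dapa minus Ctrl, against -2.29, 0.04 and -2.12 over all genes.

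Of 12 kidney genes known to follow the clock, 11 could be tested and 6 had a promoter summit in every library (Wee1, Sgk1, Nampt, Fkbp5, Slc12a3 and Slc6a6), while Avpr2 had none. Slc6a6, a taurine transporter, stood at 77.9 ± 7.95 in Dapa against 62.8 ± 10.4 in Ctrl (exact permutation p = 0.0303, adjusted p = 0.289), the 1 of 11 with an unadjusted p below 0.05 in a comparison where 13.5% of all genes had one. No other gene of the list had an unadjusted p below 0.05 in the 3 comparisons, by percentile or by count. Of all genes, 12.8% had one by percentile between Case and Ctrl and 3.62% between Dapa and Case. By count the shares were 3.55% (Case and Ctrl), 0.83% (Dapa and Case) and 2.78% (Dapa and Ctrl).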

How the data were processed

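Whole kidneys of 17 mice were profiled by ATAC-seq. According to the study's methods, reads were aligned to mm10 with Bowtie2 in the ENCODE ATAC pipeline, duplicates and blacklisted regions were removed, ends were shifted for the transposase, and MACS2 called peaks per library. Versions of Bowtie2, MACS2 and the pipeline are not given in the sources used here. The deposited values are summit positions with a MACS2 score on a −log10 scale, made by the authors, and whether it is a p or a q value is not stated. Read depth is unknown, so no counting interval is given.

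Each list was reduced to its 29702 highest scores, the length of the shortest. Up to 4351 summits of a list were tied at the cutoff and were taken in seeded random order, and 12 clock gene summits had a cutoff score. Ranks were turned into percentiles. Promoters were within 1 kb of an annotated start (GENCODE M21). Regions joined summits within 250 bp to each side and were kept if found in at least 2 libraries. Percentiles and summit counts were compared by exact 2-sided permutation over mice, presence by Fisher's exact test, each with Benjamini-Hochberg adjustment over all genes (13163 by percentile, 17116 by count) or testable regions. Each group has 1 library per mouse. Named results were every clock gene or region with an unadjusted p below 0.05, or the lowest p where there was none.

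The members and lists were chosen with earlier results of these data known. The rank test of regions (52453 regions), a pooled db/db comparison (not used, since it was chosen for 1 region), genome-order ties, the complete lists ranked in the same regions and leaving out Case 3 and Dapa 8 were added after seeing the data. Other alternatives were the complete lists, the 14851 highest scores, scores of at least 5, extensions of 100 or 500 bp, at least 3 libraries, a replicate block and leaving out each mouse. Copies were searched with blastn 2.17.0. Computations used Python 3.11.15, numpy 2.4.6, pandas 2.3.3 and scipy 1.17.1, figures matplotlib 3.10.9, and the tests were tested on simulated data.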

Additional observations from a re-analysis of the deposited data

Results flagged for a closer look

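Within each group of 5 or 6 mice the highest and lowest value of each clock gene was compared with the rest by Dixon's criterion, which marks about 1 in 20 groups of continuous values by chance. It marked 3 of 30 groups by promoter percentile and 5 of 30 by summit count, and for whole-number counts that are otherwise tied a single differing mouse is always marked, so that rate does not apply to them. The Clock promoter percentile was 0 in Case 2, against 47.2 to 73.5 in the other Case mice. The Per1 summit count was 3 in Case 4 and 4 in each other Case mouse. The Per3 promoter percentile was 64.9 in Dapa 12, against 86.4 to 95.3 in the other Dapa mice. The Cry1 summit count was 1 in Ctrl 2 and 2 in each other Ctrl mouse. The Cry2 promoter percentile was 96.5 in Ctrl 5, against 98.4 to 98.9 in the other Ctrl mice. The Nr1d1 summit count was 4 in Case 5 and 4 in Dapa 12, against 3 in every other mouse of those groups. The Nr1d2 summit count was 2 in Ctrl 5 and 3 in each other Ctrl mouse.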

How the results depend on the processing

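No gene or region of the genome passed adjustment under any alternative that leaves out a mouse. The counts below are of clock genes or regions with an unadjusted p below 0.05, each with the share of all genes or regions tested that had one under the same choice, and where one moved the cause was not tested. With the replicate block, where no p can fall below 0.0625, all counts and shares were 0. Between Case and Ctrl the promoter count was 2 (12.8%), and it was 1 with all summits (16.3%) and 1 without Case 3 and Dapa 8 (13.2%). The summit count test gave 1 (3.55%), and gave 0 with all summits (4.14%), 0 with the 14851 highest scores (2.54%) and 2 without Case 3 and Dapa 8 (3.72%). Presence gave 1 (10.2%), and gave 0 with the 14851 highest scores (8.58%), 2 with scores of at least 5 (12.2%) and 2 without Case 3 and Dapa 8 (15.6%). Region percentiles gave 4 (8.16%), and gave 2 with all summits (7.46%), 3 with the 14851 highest scores (8.82%) and 3 with an extension of 100 bp (7.81%). Between Dapa and Case, the promoter count of 0 (3.62%) was 1 without Case 3 and Dapa 8 (4.42%; Arntl, -10.7, exact permutation p = 0.0159), and the counts of 0 by summit count (0.83%) and by presence (1.13%) were each 1 with the 14851 highest scores (0.597% and 1.07%). By region percentile the count of 3 between Dapa and Case (2.12%) was 2 with all summits (1.38%) and 2 with the 14851 highest scores (2.47%). Between Dapa and Ctrl, the promoter count of 1 (13.5%) was 2 without Case 3 and Dapa 8 (15.2%), and the summit count result of 0 (2.78%) was 1 with the 14851 highest scores (2.50%). Region percentiles gave 7 there (7.77%), and gave 6 with the 14851 highest scores (8.76%) and 6 with an extension of 500 bp (7.8%). They gave 8 with scores of at least 5 (10.9%) and 8 without Case 3 and Dapa 8 (8.31%). The Case minus Ctrl difference at the Cry2 region 10156 bp into the gene reversed to -2.13 with scores of at least 5. With each mouse left out in turn the promoter counts ranged from 0 to 2 (Case and Ctrl, 9.73% to 13.2% of all genes), 0 to 1 (Dapa and Case, 3.15% to 4.51%) and 1 to 2 (Dapa and Ctrl, 10.5% to 15.2%). In the same order of comparisons, those by summit count were 1 to 2 (2.61% to 4.71%), 0 (0.643% to 1.02%) and 0 (1.98% to 3.63%). Those by presence were 1 to 2 (9.01% to 19.5%), 0 (1.25% to 2.38%) and 1 (7.30% to 15.4%), and those by region percentile 2 to 5 (5.61% to 8.52%), 2 to 5 (1.85% to 2.78%) and 5 to 8 (5.51% to 8.31%). The replicate block paired equal mouse numbers of Ctrl and Case, 5 pairs, and gave -27.1 for the Clock promoter (exact p = 0.125) and -1.4 for the Nr1d2 count (exact p = 0.0625, the smallest that 5 pairs allow). Same-numbered Ctrl and Case mice did not deviate together (correlations of -0.0323, 0.0395, -0.0392, -0.0458 and -0.0106 over 6928 genes), so no pairing by number was seen. Dapa mice carry other numbers and were not examined in this way. A shared batch or collection time that moves few genes was not tested. Read depth is unknown, a summit below the list cutoff reads as 0, and tied scores limit the resolution of low percentiles.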
